A study of Mus musculus with 5 samples.

Results

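Transcripts of 10 genes that mark newborn neurons and dividing cells were examined in the brains of 5-month-old male mice of the inbred strain C57BL/6, from which the right hemisphere was taken (5 samples). The genes were taken by name from the 47729 rows of the deposited count table, and all 10 were found. They comprise 2 genes of migrating neuroblasts (Dcx and Sox11), 5 transcription factor genes of olfactory bulb progenitors (Dlx1, Dlx2, Sp8, Sp9 and Eomes) and 3 genes of cell division (Mki67, Top2a and Cdk1). The labels give 1 library of mRNA per sample and place all 5 samples in 1 group with no treatment, genotype or time series, so genes were compared with each other within a brain and samples were compared with each other. The samples are called animals 1 to 5, numbered in the order of the deposit, although no label says outright that they came from different mice. A p-value here therefore reflects sample-to-sample spread alone, part or all of which may be technical.

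In the adult mouse brain new neurons arise mainly in the wall of the lateral ventricle and in the dentate gyrus of the hippocampus. Stem cells of the ventricular wall give rise to dividing intermediate cells and then to neuroblasts, which migrate to the olfactory bulb and become mostly GABA-releasing interneurons. The factors Dlx1, Dlx2, Sp8 and Sp9 act in that GABA lineage, whereas Eomes, also called Tbr2, marks progenitors of glutamate-releasing neurons. Several of these genes are also used by mature cells: Dlx1 by cortical interneurons, Sp9 by striatal neurons and Eomes by the mitral and tufted output neurons of the olfactory bulb. In a whole hemisphere, a lower level from fewer cells of a type and one from less RNA per cell cannot be told apart.

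Library depth ran from 13184234 to 15570064 counts. The labelled tissue was checked against marker genes: Slc17a7, which loads glutamate into synaptic vesicles, averaged 382 ± 22.0 RPKM (per-million read counts divided by gene length in kilobases) and Gad1, which makes GABA, 56.5 ± 1.02 RPKM. Every ± gives an SD, always with n = 5. The libraries differed in markers of neighbouring regions. Gabra6, a gene of cerebellar granule cells, had 64 counts in animal 4 and 0 or 1 in the other animals, and the 4 brainstem genes summed to 41.2 CPM (per-million counts with no length correction) in animal 4, 28.4 CPM in animal 2 and 5.46 CPM in animal 5. Together the 10 genes took 8042 counts, or 0.0113% of all counts, with 105 CPM in animal 3 as the lowest value and 122 CPM in animal 2 as the highest.

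The 2 neuroblast genes were detected in all 5 brains, at 2.70 to 4.05 RPKM. Dcx (ENSMUSG00000031285, GRCm38 chromosome X, 143855842 to 143933311, minus strand) encodes doublecortin, a microtubule-binding protein of migrating and newly formed neurons. It had 3.08, 3.41, 2.72, 2.70 and 3.02 RPKM in animals 1 to 5, which rest on 522, 641, 488, 531 and 504 counts. Animal 2 had the highest value and animals 3 and 4 the lowest, with a ratio of 1.26 between the extremes. Sox11 (ENSMUSG00000063632, chromosome 12, 27334264 to 27342574, minus strand), a transcription factor gene that drives immature neuron genes, had 3.17, 3.14, 3.45, 4.05 and 3.49 RPKM. Its highest value was in animal 4, where Dcx was lowest. The mean was 2.99 ± 0.293 RPKM for Dcx and 3.46 ± 0.367 RPKM for Sox11, and of all genes with at least 1 count 34.9% lay above Dcx and 33.1% above Sox11.

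Dcx lay below Sox11 in 4 of 5 animals, with a log2 ratio of -0.20 ± 0.26 (exact two-sided sign-flip test, p = 0.188, adjusted p = 0.202 over 14 fixed pairs). The order depends on the length correction: Dcx has a length of 12647 bases and Sox11 one of 8311 bases, and on CPM without a length Dcx was the higher (log2 ratio 0.39). Sox11 exceeded Sox4, its close relative with overlapping targets, in 5 of 5 animals (log2 ratio 0.47 ± 0.20, exact p = 0.063, adjusted p = 0.0729). Here and below, 0.063 is the smallest p that 5 animals allow, so no pair could pass 0.05. Of the Sox4 sequence 54% is shared with transcripts on the opposite strand, and its level is uncertain because the counting is not stated to use strand. Calb2, the calcium-binding protein calretinin of both young and mature interneurons, stood at 52.9 ± 9.51 RPKM, and Dcx lay below it by a log2 ratio of -4.09 ± 0.26 in 5 of 5 animals (exact p = 0.063, adjusted p = 0.0729). The log2 ratio of Dcx to Calb2 was -0.99 on CPM without a length, and that of Sox11 to Sox4 was 1.27.

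Dlx1 was the most abundant of the 10 genes, and the other factors of the olfactory lineage lay between 0.223 and 1.47 RPKM on average. Dlx1 (ENSMUSG00000041911, chromosome 2, 71528113 to 71533981, plus strand), a homeobox gene of forebrain GABA neurons, had 5.30, 6.13, 4.49, 4.86 and 5.12 RPKM in animals 1 to 5, a mean of 5.18 ± 0.612. Its neighbour Dlx2 (ENSMUSG00000023391, chromosome 2, 71543408 to 71546754, minus strand), which acts with it in the same progenitors, had 1.20, 1.51, 1.16, 1.17 and 1.36 RPKM, a mean of 1.28 ± 0.149. The pair thus had the same highest animal, 2, and the same lowest, 3. Dlx1 exceeded Dlx2 in 5 of 5 animals by 3.83-fold on the log2(RPKM + 0.1) scale (log2 ratio 1.94 ± 0.084, exact p = 0.063, adjusted p = 0.0729). On that scale its SD was the smallest of the 14 ratios. The log2 ratio was 1.44 with a pseudocount of 1 RPKM and 2.90 on CPM without a length. Annotated exons of the antisense gene Dlx1as cover 6.21% of the exons of Dlx1, and Dlx1 had 1991 counts in all, against 119 for Dlx1as.

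The second Dlx gene pair, Dlx5 and Dlx6, which lies downstream of the first in the GABA lineage, stood between Dlx1 and Dlx2 in level. Dlx6 stood at 3.92 ± 0.421 RPKM and Dlx5 at 1.85 ± 0.189 RPKM. Dlx1 exceeded Dlx5 by a log2 ratio of 1.44 ± 0.23 and Dlx2 lay below Dlx6 by a log2 ratio of -1.54 ± 0.24, each in 5 of 5 animals (exact p = 0.063, adjusted p = 0.0729 for either). On CPM without a length the log2 ratio of Dlx1 to Dlx5 was 2.71.

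Sp9 (ENSMUSG00000068859, chromosome 2, 73271925 to 73284706, plus strand) and Sp8 (ENSMUSG00000048562, chromosome 12, 118846329 to 118852576, plus strand) encode related zinc finger factors that act in neuroblasts of the olfactory bulb interneuron lineage, and Sp9 also in striatal neurons of the indirect pathway. Sp9 had 1.76, 1.37, 1.35, 1.45 and 1.38 RPKM in animals 1 to 5, a mean of 1.47 ± 0.171. Animal 1 stood above the other 4, which lay within a ratio of 1.07. Sp8 had 0.367, 0.750, 0.802, 0.444 and 0.525 RPKM on 22, 50, 51, 31 and 31 counts, a mean of 0.577 ± 0.190. It was high in animals 2 and 3 and lowest in animal 1, where Sp9 was highest. Sp8 lay below Sp9 in 5 of 5 animals, with a log2 ratio between -2.0 in animal 1 and -0.69 in animal 3 (mean -1.25 ± 0.54, exact p = 0.063, adjusted p = 0.0729). With the pseudocount of 0.1 RPKM this SD was the largest of the 14 ratios, close to 0.52 for Cdk1 to Cdk2. The rank was not examined at other pseudocounts. With a pseudocount of 1 RPKM in place of 0.1 the mean was -0.65. Drd2, the dopamine receptor gene of the indirect pathway, stood at 19.5 ± 2.68 RPKM, and the log2 ratio of Sp9 to it was -3.64 ± 0.11 (-2.01 without a length). Exons of Cir1 on the opposite strand overlap 5.35% of the exons of Sp9.

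Eomes (ENSMUSG00000032446, chromosome 9, 118478212 to 118486132, plus strand) had 7, 25, 10, 14 and 11 counts in animals 1 to 5, or 0.126, 0.404, 0.170, 0.216 and 0.201 RPKM. Animal 2 was the highest and animal 1 the lowest, with a ratio of 3.21 between them and of 1.72 over the other animals without animal 2. The 95% Poisson interval for animal 2, 16.2 to 36.9 counts, overlaps those of animals 3, 4 and 5 and lies above that of animal 1, 2.81 to 14.4 counts. These intervals cover counting error only, as the reads carry no molecular identifiers and may be copies of 1 molecule. Tbx21, a relative of Eomes that marks mitral and tufted neurons, had 2, 12, 1, 6 and 4 counts, again highest in animal 2, and Eomes exceeded it in 5 of 5 animals (log2 ratio 0.51 ± 0.33, exact p = 0.063, adjusted p = 0.0729). Both genes lie near the pseudocount of 0.1 RPKM, on which the size of this ratio depends: it was 0.11 with a pseudocount of 1 RPKM, 0.93 with 0.01 RPKM and 1.36 on CPM without a length. Tbr1, the T-box gene of cortical glutamate neurons that follows Eomes in the developing cortex, stood at 18.1 ± 1.17 RPKM (log2 ratio of Eomes to it -5.87 ± 0.50). That log2 ratio was -3.97 with a pseudocount of 1 RPKM and -6.69 on CPM without a length.

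**Figure D1:**
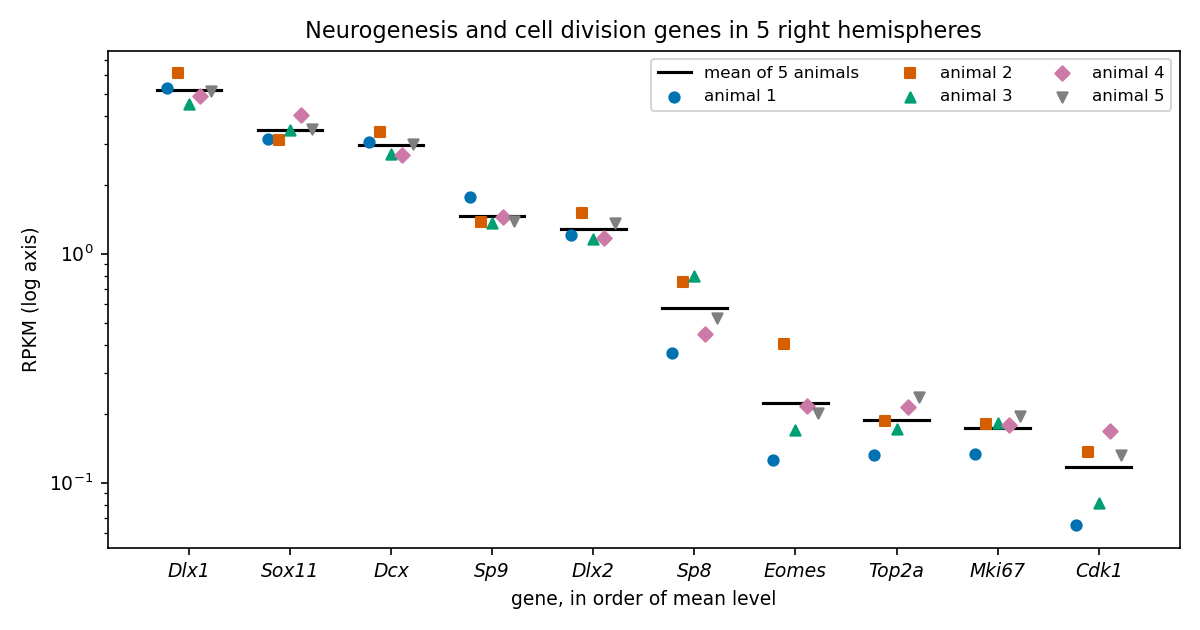
RPKM of the 10 genes on a log axis, in order of their mean, with 1 point per animal and a bar for the mean of 5 animals. Dlx1 averaged 5.18 RPKM and Cdk1 0.117 RPKM, and animal 2 holds the highest point for Dlx1, Dcx, Dlx2 and Eomes.

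The 3 cell division genes had the lowest mean RPKM of the set and were detected in every library, although Eomes lay above Top2a in only 2 of 5 animals and below Mki67 and Top2a on CPM without a length. Cells that enter division switch on a shared programme of genes, many of them through the DREAM and MuvB complexes, which bind the element TTTGAA near the start site, and through NF-Y, which binds CCAAT. Their promoters are shown because all 3 hold both elements. The windows run from 250 bases before to 50 bases after the RefSeq start on GRCm38.p6, are written 5′ to 3′ on the strand of the gene (minus for all 3), and have TTTGAA and CCAAT on either strand in capitals. They lie at chr7:135716330-135716629 for Mki67, chr11:99024140-99024439 for Top2a and chr10:69352863-69353162 for Cdk1.
Mki67: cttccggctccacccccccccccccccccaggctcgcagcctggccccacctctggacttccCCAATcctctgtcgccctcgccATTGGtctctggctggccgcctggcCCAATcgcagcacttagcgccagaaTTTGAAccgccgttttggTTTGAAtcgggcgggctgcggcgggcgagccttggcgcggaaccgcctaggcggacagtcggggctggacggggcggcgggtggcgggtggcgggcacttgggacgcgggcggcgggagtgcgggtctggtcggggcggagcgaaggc
Top2a: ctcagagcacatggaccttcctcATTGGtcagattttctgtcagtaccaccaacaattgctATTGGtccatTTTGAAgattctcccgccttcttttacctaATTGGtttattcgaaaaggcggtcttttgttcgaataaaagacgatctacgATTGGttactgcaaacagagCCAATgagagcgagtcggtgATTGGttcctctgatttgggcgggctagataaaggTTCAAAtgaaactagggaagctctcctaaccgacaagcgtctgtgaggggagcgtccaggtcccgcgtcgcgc
Cdk1: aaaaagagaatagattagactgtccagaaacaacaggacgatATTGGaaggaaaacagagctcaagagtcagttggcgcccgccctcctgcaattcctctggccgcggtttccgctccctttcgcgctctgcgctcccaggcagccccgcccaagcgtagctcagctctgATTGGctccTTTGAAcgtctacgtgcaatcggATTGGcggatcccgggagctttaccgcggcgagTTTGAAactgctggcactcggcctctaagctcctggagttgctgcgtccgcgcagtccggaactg

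Each of these windows holds 2 copies of TTTGAA, and CCAAT occurs 3 times for Mki67, 6 times for Top2a and 3 times for Cdk1. In Cdk1 the copies of TTTGAA begin at positions -71 and -15 from the start, in Top2a at -179 and -23 and in Mki67 at -116 and -98. Of 32851 RefSeq promoter windows of the same length, 17.9% hold TTTGAA, 37.4% hold CCAAT and 6.95% hold both, in each case on either strand. No copies of the 2 elements overlap in the 3 windows shown. Of the 10 windows of the other 7 genes, 3 hold both, namely those of Sox11 and Sp9 and 1 of the 3 windows of Sp8. A match describes letters in a window and not a bound site.

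Mki67 (ENSMUSG00000031004, chromosome 7, 135689784 to 135716361, minus strand) encodes the proliferation antigen Ki-67, which coats mitotic chromosomes. It had 18, 27, 26, 28 and 26 counts in animals 1 to 5, or 0.134, 0.180, 0.182, 0.179 and 0.196 RPKM. Animal 1 was the lowest and the other 4 lay within a ratio of 1.10. Top2a (ENSMUSG00000020914, chromosome 11, 98992943 to 99024189, minus strand), the topoisomerase that untangles replicated DNA, had 16, 25, 22, 30 and 28 counts, or 0.133, 0.186, 0.172, 0.214 and 0.236 RPKM. Cdk1 (ENSMUSG00000019942, chromosome 10, 69335146 to 69352938, minus strand), the kinase that starts mitosis, had 3, 7, 4, 9 and 6 counts, or 0.0652, 0.137, 0.0819, 0.168 and 0.132 RPKM. All 3 genes were lowest in animal 1. For Cdk1 the interval of animal 1, 0.619 to 8.77 counts, holds the counts of animals 2, 3 and 5, and that of animal 4, 4.12 to 17.1 counts, overlaps it. Cdk1 had too few counts for the test of spread between animals, so its differences between animals were not tested.

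The spread of these 3 genes was close to what counting alone gives. The coefficient of variation of RPKM was 13.6% for Mki67, 21.0% for Top2a and 36.2% for Cdk1, where the counts alone give 20.3%, 20.8% and 44.8%. For Dcx, Sox11 and Dlx1 it was 9.81%, 10.6% and 11.8%, where the counts give 4.33%, 4.98% and 5.05%. Mki67 and Top2a did not differ in level beyond their spread (log2 ratio -0.065 ± 0.11, Mki67 higher in 2 of 5 animals, exact p = 0.375, adjusted p = 0.375), and without a length the sign of this ratio turned to 0.059. Cdk1 lay below Top2a in 5 of 5 animals (log2 ratio -0.42 ± 0.16, exact p = 0.063, adjusted p = 0.0729). The size of this ratio depends on the pseudocount, which is close to the level of Cdk1: it was -0.089 with 1 RPKM, -0.69 with 0.01 RPKM and -1.87 on CPM without a length.

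**Figure D2:**
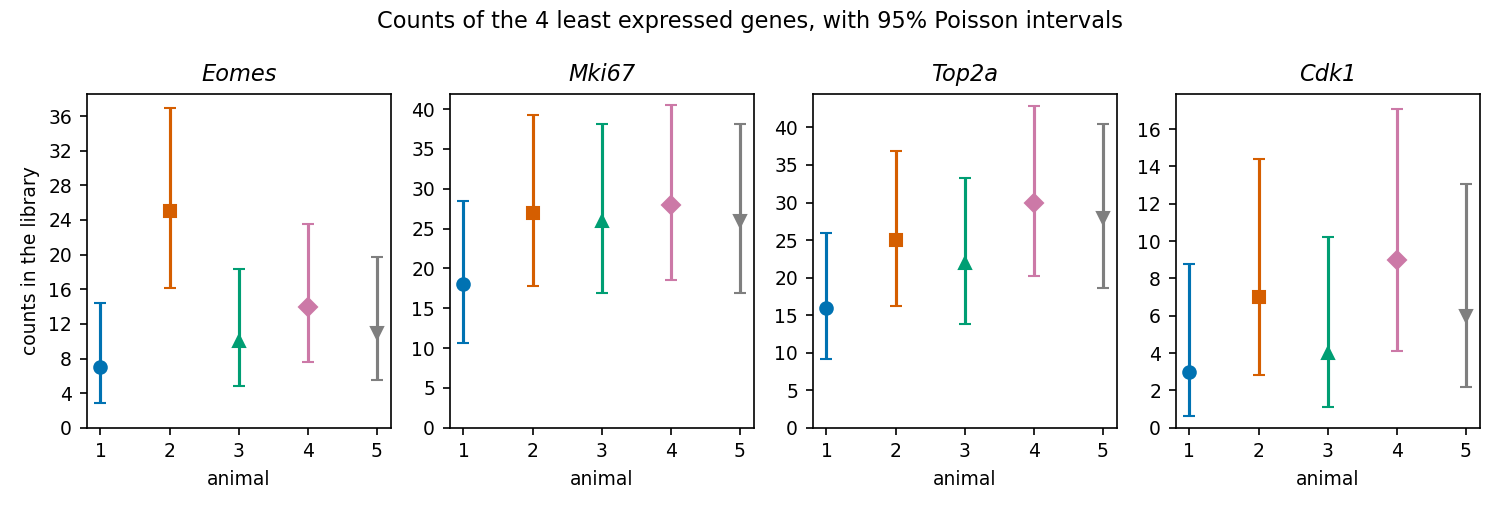
Counts per library of Eomes, Mki67, Top2a and Cdk1 in the 5 animals, with exact 95% Poisson intervals that cover counting error only. Animal 1 is lowest in each panel (7, 18, 16 and 3 counts), and its intervals overlap those of the other animals except that of animal 2 for Eomes.

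Among the cell cycle lists the median level was highest for regulators of G1 and lowest for genes of G2 and mitosis. The levels of single genes overlapped between these lists and no test compared them. Of 26 fixed genes of G2 and mitosis, all had at least 1 count, 24 had a mean under 1 RPKM, and their median was 0.331 RPKM. The highest were Bub1b (1.69 ± 0.413 RPKM), a spindle checkpoint kinase, Tacc3 (1.06 ± 0.179 RPKM) and Ccnb2 (0.829 ± 0.357 RPKM), a cyclin partner of Cdk1. Of 19 genes of S phase, 10 had a mean under 1 RPKM and the median was 0.990 RPKM, led by Ccne1 (6.67 ± 0.400 RPKM), Pcna (6.39 ± 0.405 RPKM) and Rrm1 (5.72 ± 0.143 RPKM). Of 14 regulators of G1, 3 had a mean under 1 RPKM and the median was 5.06 RPKM, led by the kinase inhibitor Cdkn2d (27.5 ± 1.08 RPKM), the kinase Cdk4 (10.8 ± 0.520 RPKM) and the inhibitor Cdkn1a (9.80 ± 2.18 RPKM). Mki67 lay below Pcna, the sliding clamp of DNA replication and repair, by a log2 ratio of -4.57 ± 0.16, and Cdk1 below Cdk2 by -2.45 ± 0.52, each in 5 of 5 animals (exact p = 0.063, adjusted p = 0.0729 for either). With a pseudocount of 1 RPKM these log2 ratios were -2.65 and -0.89. Pcna shares 24.5% of its sequence with other genes and is uncertain.

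**Figure D3:**
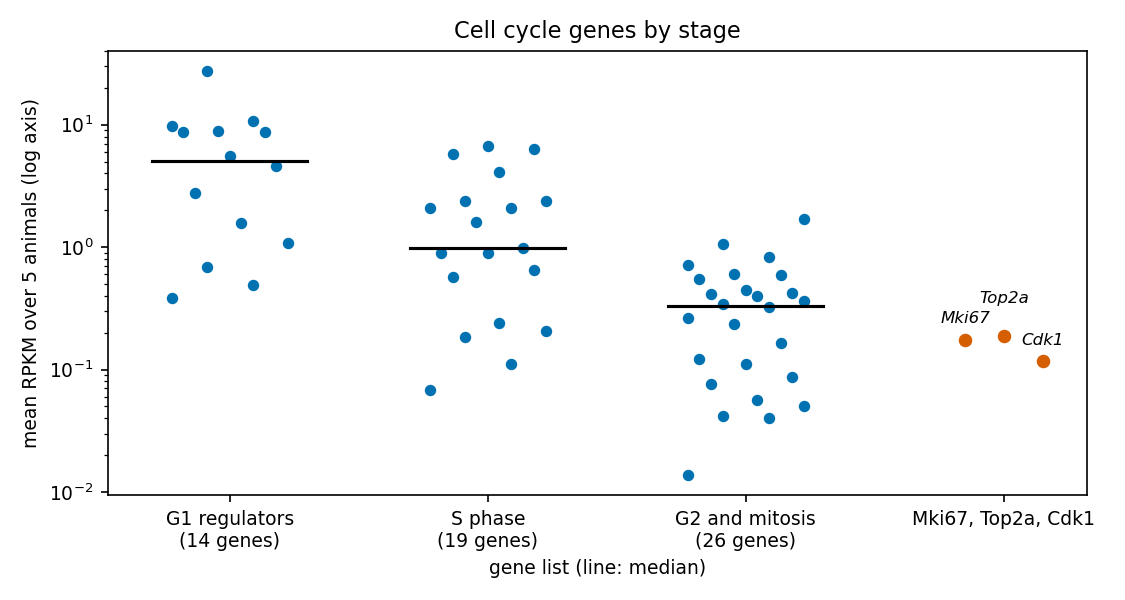
Mean RPKM over 5 animals on a log axis for each gene of the G1, S phase and G2 and mitosis lists, with the list median as a bar, beside Mki67, Top2a and Cdk1. The medians are 5.06, 0.990 and 0.331 RPKM, and the 3 named genes lie between 0.117 and 0.188 RPKM.

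By mean RPKM the 10 genes ran Dlx1, Sox11, Dcx, Sp9, Dlx2, Sp8, Eomes, Top2a, Mki67 and Cdk1. The steps from Dlx1 to Sox11, from Dcx to Sp9 and from Dlx2 to Sp8 held in 5 of 5 animals with no overlap of the ranges. Those from Sp8 to Eomes and from Mki67 to Cdk1 also held in 5 of 5 animals, but the ranges overlapped. Sox11 lay above Dcx and Sp9 above Dlx2 in 4 of 5 animals each, Eomes above Top2a in 2 of 5 and Top2a above Mki67 in 3 of 5, and the differences of these last 2 steps, 0.0353 and 0.0139 RPKM, were smaller than the SD of either gene. On CPM without a length the order began with Dcx, Sox11 and Dlx1, and Eomes moved behind Mki67 and Top2a.

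None of the tested members passed a test for excess spread between animals. A filter on low counts left 14770 genes, among them 8 of the 10. Eomes and Cdk1 did not pass it and were not tested. A gene's quasi-dispersion is its spread relative to that of the fitted count model, which already includes counting error. Each was divided by the trend over genes of like abundance and tested in the upper tail with edgeR's quasi-likelihood fit. Benjamini-Hochberg adjustment was over all genes tested. At an adjusted p of 0.05, 45 genes or 0.305% passed (26 without animal 3 and 18 without animal 5), among them 0 of the 8 members. At an unadjusted p of 0.05, 802 genes or 5.43% passed, among them 1 of 8 members, Sp8, whose ratio to the trend was 3.35 (edgeR adjusted p = 0.852). In the lower tail 0 genes passed after adjustment, 739 or 5.0% did so before it, and 0 of the 8 members did either. In none of 10 alternative settings, which include DESeq2 and limma, was a member called, although limma called 0 of 20476 genes.

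The ratio to the trend was 2.86 for Dlx1 (edgeR adjusted p = 0.943), 2.72 for Sox11 (adjusted p = 0.956) and 2.49 for Dcx (adjusted p = 0.960). It was 1.02 for Sp9, 0.993 for Top2a, 0.491 for Dlx2 and 0.426 for Mki67. The median over the 8 members was 1.75, beside 0.875 over all genes tested, and the median range between animals was 1.32-fold beside 1.19-fold. The ranges on normalized log2 CPM were 2.09-fold for Sp8 and 1.69-fold for Top2a, and from 1.25-fold to 1.41-fold for the other 6.

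**Figure D4:**
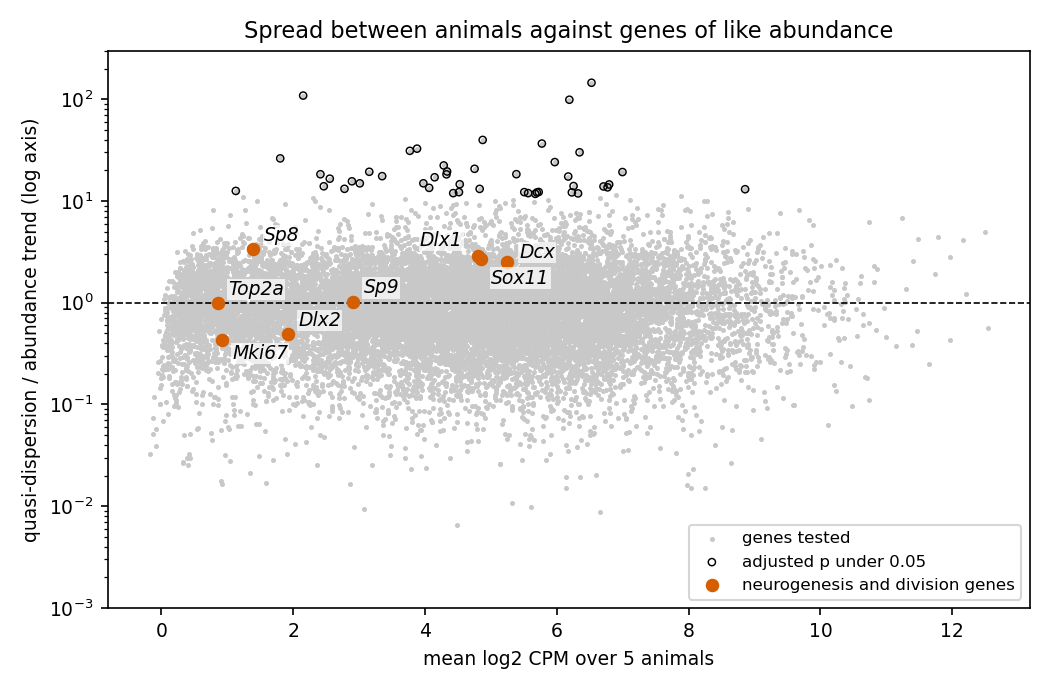
Ratio of quasi-dispersion to the abundance trend (log axis) against mean log2 CPM for the 14770 genes tested, with the 45 genes past an adjusted p of 0.05 circled and the 8 tested members named. The members lie between 0.426 for Mki67 and 3.35 for Sp8, inside the cloud of all genes.

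Animal 2 had the highest RPKM for 4 of the 10 genes (Dcx, Dlx1, Dlx2 and Eomes), and most fixed genes of the olfactory bulb were highest in the same animal. Of 8 fixed olfactory bulb genes, 6 were highest in animal 2, and all 8 summed to 28.7, 44.1, 30, 34.8 and 30.4 CPM in animals 1 to 5. The share of all genes that were highest in animal 2 was not counted. Among the 6, Th was nearly equal in animals 2 and 4 (6.62 and 6.55 RPKM) and lowest in animal 5 (3.69 RPKM). The brainstem sum was likewise higher in animals 2 and 4 (28.4 and 41.2 CPM) than in the others, and lowest in animal 5 (5.46 CPM). Th had 233 of the counts summed in animal 2. Ly6g6e was not highest in animal 2, with 0.881 RPKM in animal 1 and 0.739 RPKM in animal 2. Cdhr1, a cadherin of mitral and tufted neurons, had 4.68 RPKM in animal 2 and 3.13 to 3.84 in the other animals. Doc2g, a calcium sensor family gene of the same neurons, had 1.35 RPKM in animal 2 and 0.535 to 1.05 in the others, and shares 55% of its sequence with other genes, which makes it uncertain. Shisa3 had 28 counts in animal 2 and 10 to 15 in the others, and Omp, the marker of olfactory sensory neurons and their axons, 8 counts in animal 2 and 2 to 6 in the others. S100a5 had 1 count in all, in animal 4. None of the 4 tested genes of this list passed the adjusted threshold (adjusted p = 0.257 for Th, 0.674 for Cdhr1, 0.677 for Doc2g and 0.987 for Shisa3 by edgeR). Animal 2 also had the highest sum of the long nuclear RNA list, taken as a sign of library quality, with 2983 CPM against 2385 to 2772 in the others. The part of the olfactory bulb genes, of the brainstem genes and of the nuclear RNAs in the values of animal 2 was not tested.

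**Figure D5:**
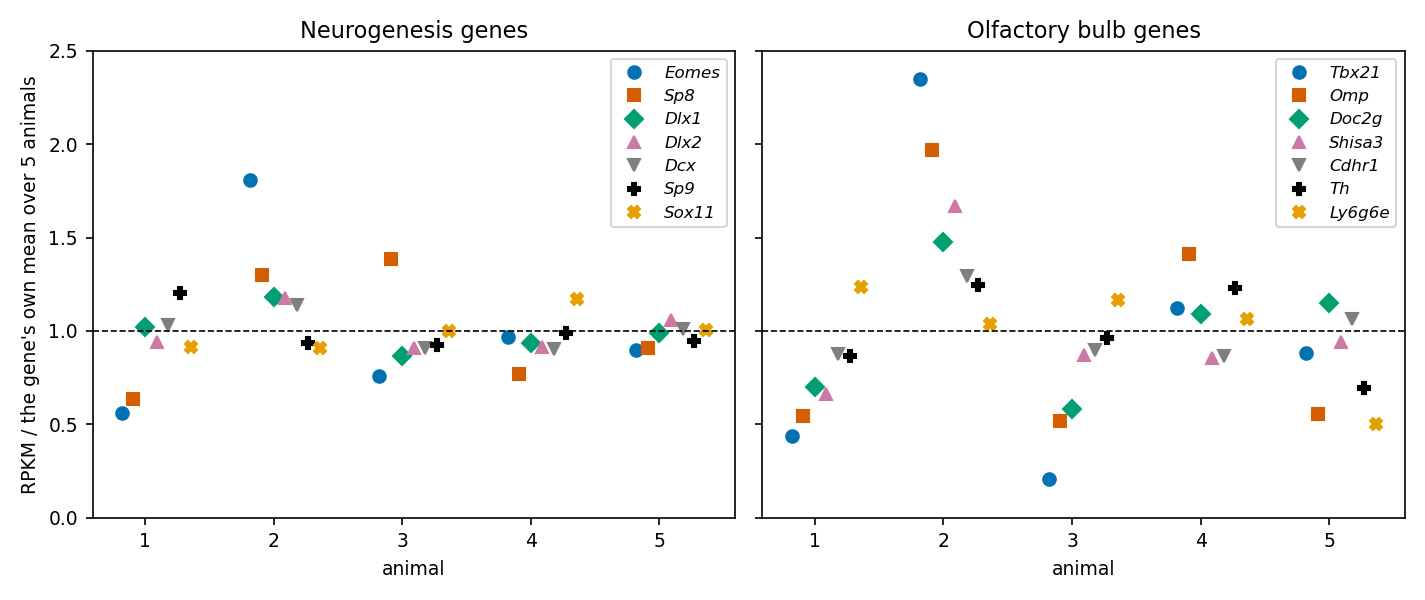
RPKM in each animal divided by the gene's own mean over 5 animals (dashed line at 1), for the 7 neurogenesis genes on the left and 7 of the 8 olfactory bulb genes on the right; S100a5, with 1 count in all, is not drawn. In animal 2 Eomes stands at 1.81 times its mean and Tbx21 at 2.35 times, while Sp9 stands highest in animal 1 at 1.20 times its mean.

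Animal 1 had the highest Sp9 and the lowest Sp8, Eomes, Mki67, Top2a and Cdk1. The 5 striatal genes summed to 722 CPM in that animal and to 575 to 632 CPM in the others. Of these genes Drd1 was highest in animal 5, at 15.85 RPKM against 14.94 RPKM in animal 1. Penk had 158 RPKM in animal 1 and 155 RPKM in animal 5. Drd2 had 23.8 RPKM in animal 1 and 17.2 to 20.3 in the others (edgeR adjusted p = 0.598). Adora2a, the adenosine receptor of the same neurons, had 24.4 and 15.6 to 17.9 RPKM (adjusted p = 0.0444, a call kept in 6 of 10 alternatives, with an adjusted p of 0.990 without animal 1, 0.0559 without animal 2, 0.122 with a prior that is not robust and 0.627 by limma). The 26 genes of G2 and mitosis, which include none of the 3 members, summed to 37.1 CPM in animal 1 and 37.7 to 44.9 CPM in the others. What these genes contributed to the values of animal 1 was not tested.

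Fixed lists of stem cell and young neuron genes, which hold none of the 10 genes, were counted in the same fit. Of 12 further genes of immature neurons, all 12 were tested and 1 passed: Calb2, which was highest in animal 2 at 66.2 RPKM against 44.0 to 58.4 in the others (adjusted p = 0.0444, a call kept in 4 of 10 alternatives, with an adjusted p of 0.103 without animal 1, 0.358 without animal 2, 0.0533 without animal 3, 0.0971 without animal 5, 0.126 with a prior that is not robust and 0.512 by limma). The list was led by Tubb3 (154 ± 3.33 RPKM), a neuronal tubulin, Calb2 and Ncam1 (42.9 ± 2.24 RPKM), which mature neurons also express, whereas Igfbpl1, a gene of neuroblasts, stood at 0.477 ± 0.0508 RPKM. Its median ratio to the trend was 1.35. Of 11 genes of the ventricular and olfactory GABA lineage, 10 were tested and 0 passed (median ratio 0.941). They were led by Gad1, Meis2 (11.6 ± 0.153 RPKM) and Th, the enzyme of dopamine synthesis (5.32 ± 1.26 RPKM). Gsx2, a factor of ventricular progenitors, had 1, 1, 3, 8 and 4 counts.

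Of 12 neural stem cell genes, all 12 were tested and 0 passed, with 3 at an unadjusted p of 0.05 (Fabp7, Hes5 and Sox2) and a median ratio of 1.97. Hes5 shares 27.8% of its sequence with transcripts on the opposite strand and is uncertain. Gfap (50.9 ± 3.53 RPKM) and Fabp7 (26.9 ± 4.72 RPKM), the highest of them, are also genes of mature astrocytes, as is Hopx (17.2 ± 1.43 RPKM). Nes, the intermediate filament of stem cells and vessels, stood at 2.32 ± 0.313 RPKM. Of 6 genes of glutamatergic progenitors, 3 were tested and 0 passed (median ratio 1.59). Tbr1, Neurod1 (3.08 ± 0.411 RPKM) and Insm1 (2.55 ± 0.206 RPKM) were the highest, and Neurog2, which acts before Eomes, had 5 to 8 counts per library and Tfap2c 0, 0, 2, 3 and 1 counts. Of 5 dentate gyrus genes 0 of 5 tested passed, led by Calb1 (28.5 ± 1.99 RPKM), C1ql2 (5.93 ± 0.586 RPKM) and Prox1 (5.52 ± 0.465 RPKM). Of the cell cycle lists, 0 of 15 tested genes of S phase, 0 of 15 of G2 and mitosis and 0 of 14 of G1 passed, with median ratios of 0.727, 0.863 and 1.31.

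Dlx1 had the widest range of the members with a mean count of at least 100, and among the genes whose deviations from their own mean lay nearest to its own over the 5 animals were Atp8b1, Nudt17, Sh3d21 and Wdr46. Their root-mean-square differences from Dlx1 were 0.021, 0.024, 0.025 and 0.029 on the log2 scale. They are among the 5 closest of 14769 other genes, over 5 samples.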

How the data were processed

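The authors deposited raw counts per Ensembl gene for 5 libraries. The submitters' processing notes name GRCm38, featureCounts 1.4.6-p4, STAR 2.4.1d and CASAVA 1.7. The sources used here do not give the annotation release or strand setting. The deposited RPKM table was tested against the counts: with the 5 totals cycled from row to row the implied gene length had a median coefficient of variation of 0.00178% over 7363 genes, and with each library's own total 10.7%, so RPKM was recomputed from the counts with own totals and that length. Symbols, positions and shared sequence (words of 50 bases every 5 bases) come from GENCODE M21 on GRCm38, which matched 47310 of 47729 genes; a gene that shares 20% or more is called uncertain. Of the members, none shares over 6.32% on either strand. The libraries differed by more than counting noise in every pair (chi-square per degree of freedom 2.42 to 4.18).

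The variability fit used an intercept only, TMM factors, filterByExpr and robust glmQLFit in its legacy form (edgeR 4.0.16, R 4.3.3), and each quasi-dispersion was compared with its trend by an F distribution on 4 and 15.3 degrees of freedom. Ranges use log2 CPM with a prior count of 2. The 14 pairs used log2(RPKM + 0.1) and 32 sign patterns. Alternatives used limma 3.58.1, DESeq2 1.42.0 and other settings.

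The members and the 22 lists (182 genes) were chosen with earlier results of these data known. Named are the members, pair genes, the 3 most abundant and up to 4 called genes of the lists described, and the 5 genes nearest to the member with the widest range, 1 of which is not reported here; other genes, among them Gabra6, Igfbpl1, Nes, Gsx2, Neurog2, Tfap2c and those of the olfactory bulb beyond the first 3, were named after their values were seen.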

Additional observations from a re-analysis of the deposited data

Results flagged for a closer look

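In 4 of 49 values that were checked, 1 animal lay far from the other 4, by a gap that was over 0.71 of the whole range. Chance flags about 5% of groups of this size. Sp9 was high in animal 1 (gap 0.762 of the range), where the summed CPM of the striatal genes was also highest. Mki67 was low in animal 1 (0.723), on 18 counts. The summed CPM of the oligodendrocyte precursor list was high in animal 4 (0.738), as was that of the mature oligodendrocyte list (0.782). In the precursor list Pdgfra, Cspg4, Olig2 and Gpr17 were highest in other animals. Pdgfra had 6.61 RPKM in animal 4 and 8.26 RPKM in animal 5. None of the genes in those lists passed the adjusted threshold of the edgeR variability test.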

How the results depend on the processing

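The number of genes past the variability threshold was 45 as reported and depended on the method: 44 with DESeq2 size factors, 249 with no filter on low counts, 19 with a prior that is not robust, 131 as DESeq2 dispersion outliers and 0 with limma on recomputed RPKM (1085 at an unadjusted p of 0.05), and 18 to 44 when 1 animal was left out. The cause was not tested. No member passed in any of these where it was tested. With limma no gene passed at all, and Eomes and Cdk1 had a p-value in only 3 and 2 settings. Of the 14 pairs, 12 kept their sign under every alternative, and the log2 ratio turned without a length for Dcx to Sox11 (0.39) and for Mki67 to Top2a (0.059). The log2 value of several ratios moved by more than 1.5 times under another pseudocount or without a length, with the values given beside Cdk1 to Top2a, Eomes to Tbx21, Cdk1 to Cdk2, Mki67 to Pcna, Sp8 to Sp9, Dcx to Calb2, Sox11 to Sox4, Dlx1 to Dlx5 and Sp9 to Drd2. The log2 ratios of Dlx1 to Dlx2 and of Eomes to Tbr1 moved by less, and their values are also given beside those pairs. With a pseudocount of 1 RPKM the ratio of Mki67 to Top2a was -0.017, and without animal 4 that of Dcx to Sox11 was -0.11. The deposited RPKM moved no member's mean by more than its SD, nor did leaving out any 1 animal. No comparison paired between groups was possible because all samples belong to 1 group. The paired tests here set genes against each other within a sample. Depth limits Cdk1 and Eomes most, with 29 and 67 counts in all.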

Other observations

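Dividing cells of the adult brain also include oligodendrocyte precursors, microglia and vessel cells, whose marker genes were far above the cell division genes in level. Pdgfra and Cspg4, which mark oligodendrocyte precursors, stood at 7.20 ± 0.705 and 4.07 ± 0.231 RPKM, and the 10 genes of that list summed to 531, 517, 513, 580 and 513 CPM in animals 1 to 5. The 7 microglial genes summed to 317 to 333 CPM and the 6 endothelial genes to 245 to 259 CPM. In animal 1, where Mki67, Top2a and Cdk1 were lowest, these sums were 531, 319 and 257 CPM, inside the range of the other animals for each list. Single precursor genes differed from their sum, in which Olig1 and Bcas1 were the most abundant (means of 51.7 and 45.1 RPKM). Pdgfra was lowest in animal 1 (6.58 RPKM) and highest in animal 5 (8.26 RPKM). Cspg4 had 4.205 RPKM in animal 1 and was lowest in animal 5 (3.70 RPKM). Whether precursors follow the cell division genes between animals was not tested. Of the 10, 7 and 6 genes, all were tested and 0 passed the adjusted threshold for variability.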
